A study of Mus musculus with 9 samples.

Results

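The genes described here are 10 members of the NF-κB system in the mouse: the inhibitors Nfkbia, Nfkbib, Nfkbie and Nfkbiz, the subunits Nfkb1, Nfkb2, Rela and Relb, and the signal-limiting pair Tnfaip3 and Tnip1. They are 10 of the 21938 protein-coding genes of the GENCODE M21 annotation. They were taken as a list of names, which was chosen with earlier results of these data known. A peak was assigned to a gene when its summit lay in the gene body or within 20 kb of it. The question was where the glucocorticoid receptor (GR) and the mineralocorticoid receptor (MR) were found at these genes, and under which treatment.

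Binding was mapped by ChIP-nexus, in which λ-exonuclease trims precipitated DNA up to the crosslinked protein, in N2A cells, a mouse neuroblastoma line. All cells were transiently co-transfected with EGFP-GR and mCherry-MR and kept in charcoal-stripped serum, and GR was precipitated through GFP and MR through mCherry. The 3 treatments were vehicle, 100 nM corticosterone (CORT) for 20 minutes, and the same CORT exposure followed by 2 washes and 40 minutes without steroid (washout), each with an input chromatin sample. The receptors were tagged and overexpressed, above an endogenous GR, and they are given as rat in the study's methods but as mouse in the deposited design text. The authors combined 3 replicates per condition into 1 list, so no value below has a replicate error and no test between lists was possible.

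NF-κB dimers are held in the cytoplasm by IκB proteins until a stimulus leads the IκB kinase to mark the inhibitor for destruction, after which the dimers enter the nucleus and switch on inflammatory genes. Their targets include their own inhibitors, among them IκBα, the product of Nfkbia, and A20, the product of Tnfaip3, and these end the response. Glucocorticoids are known to dampen this system in many cells, partly by raising the expression of such inhibitors, and GR and MR bind the same palindromic DNA element, the glucocorticoid response element (GRE).

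For GR the lists held 64 peaks with vehicle, 10602 with CORT and 246 with washout, and for MR 73, 14638 and 4885. Peak strength is given as the −log10 p of the peak against input, which grows with sequencing depth, so peaks are placed by their rank within a list, with tied values sharing the best rank. Read depth cannot be read from these lists, and absence of a peak says only that none passed the authors' threshold at the depth reached. The lists hold no expression values, so the identity of the cells could not be checked against marker genes.

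The 10 genes were unevenly occupied. After CORT, 4 of the 10 had a GR peak (Nfkbia, Nfkbie, Nfkb1 and Tnip1) and 7 had an MR peak, the same 4 with Nfkbiz, Nfkb2 and Rela. The background over all protein-coding genes, at the same distance, was 26.3% for GR and 30.2% for MR. After washout, GR was left at 1 of the 10, Nfkbia, and MR at 3, Nfkbia, Nfkbie and Tnip1, where the background was 1.02% for GR and 14.3% for MR. Nfkbia was the 1 member with peaks in all 4 of the CORT and washout lists, a state shared by 0.916% of protein-coding genes. Neither receptor had a peak at any of the 10 after vehicle, when the background was 0.109% for GR and 0.109% for MR. A count of 0 allows up to 4.69% of the 64 GR vehicle peaks and up to 4.11% of the 73 MR vehicle peaks, from counting error alone. No peak of either receptor lay at Nfkbib, Relb or Tnfaip3 in any list.

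**Figure D1:**
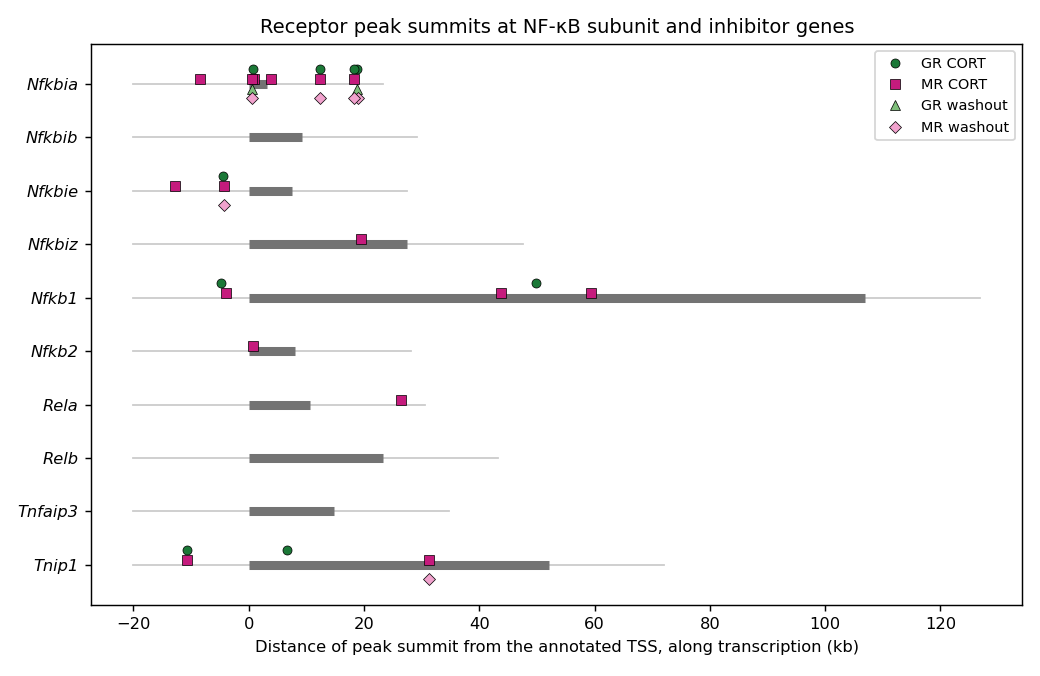
Summits of GR and MR peaks at the 10 genes after CORT and after washout, by distance from the gene's transcription start (kb, along the direction of transcription). Thick bars are gene bodies and thin lines the 20 kb on each side. Nfkbia carries 4 GR and 6 MR summits after CORT and 2 and 4 after washout, while Nfkbib, Relb and Tnfaip3 carry none.

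Joining peaks that overlap across lists gave 18 sites, of which 5 were at Nfkbia, 5 at Nfkb1, 3 at Tnip1, 2 at Nfkbie and 1 each at Nfkbiz, Nfkb2 and Rela. MR alone occupied 10 of the 18 sites after CORT, GR alone 3, and both receptors 5. For comparison, 47.6% of all MR peaks after CORT were overlapped by a GR peak, and 61.0% of all GR peaks by an MR peak. Sites without a peak of the other receptor are thus common in both lists. Of the member sites with MR alone, 9 were seen only after CORT and 1, at Tnip1, also after washout. Washout peaks were found at 5 of the 18 sites. Only 2 sites were occupied in all 4 lists, and both were at Nfkbia.

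Nfkbia encodes IκBα, the inhibitor that is lost and remade most quickly in an NF-κB response. Nfkbia (ENSMUSG00000021025, chr12:55489410-55492647, minus strand, mm10) spans 3238 bp. The peaks with the best ranks among all members lay in its first intron. GR after CORT peaked there at chr12:55491813-55492171, with a −log10 p of 55.7 and rank 11 of 10602, in the top 0.104% of the list, and its summit lay at +678 bp from the transcription start. MR after CORT had a −log10 p of 44.5 and rank 24 of 14638 (top 0.164%), with the summit at +628 bp. MR after washout still had rank 16 of 4885 (top 0.328%, −log10 p 42.5, summit at +563 bp). The GR washout peak stood lower in its much shorter list, at rank 50 of 246 (top 20.3%, −log10 p 14.2, summit at +619 bp). The 4 summits spanned 115 bp within the same intron. From another annotated transcript start of Nfkbia they lay at −159 bp (GR) and −209 bp (MR) after CORT. After washout the distances from that start were −218 bp (GR) and −274 bp (MR).

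The sequence of this intron is shown because it carried the strongest binding of both receptors at any member. The first run of capitals is the closest match to the GRE and the second is a match to the NF-κB consensus, both read on the strand of the gene, chr12:55491942-55492051, minus strand, GRCm38.
Nfkbia intron 1: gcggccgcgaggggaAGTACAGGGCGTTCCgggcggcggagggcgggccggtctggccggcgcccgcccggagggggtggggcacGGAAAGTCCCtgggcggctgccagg

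The GRE-like stretch, chr12:55492022-55492036, departs from the palindrome at 3 of its 12 fixed positions. The palindrome was taken as AGAACA, 3 free bases and TGTTCT. The NF-κB match lies at chr12:55491957-55491966, on the downstream side of it in the direction of transcription. MACE border pairs, each bounded by an exonuclease stop on either strand, were narrower than the peaks. After CORT the MR pair covered chr12:55491961-55491995, 35 bp, and after washout chr12:55491962-55492003, 42 bp. Each of these pairs took in the edge of the NF-κB match, 6 and 5 of its bases respectively, and ended 27 and 19 bp from the near edge of the GRE-like stretch. No GR border pair was listed in this intron, but the GR list after CORT is the shortest of all, at 139 pairs. The study reports far more GR pairs for that treatment, so the list is held here only in part. The lack of a GR pair after CORT therefore says nothing about a GR footprint there. The GR washout list, at 568 pairs, also held none in this intron.

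A further MR peak after CORT, chr12:55491774-55491819, overlapped the edge of the GR peak after CORT, with a summit at +853 bp. That summit was in intron 1 of the coding transcript but in an exon of a non-coding one. It lay 16 bp past the other annotated transcript start. Its −log10 p was 10.4 and its rank 5643 of 14638, and its best GRE match had 5 mismatches.

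Downstream of Nfkbia, beyond the end of the gene, both receptors also bound at chr12:55473608-55474534 in all 4 lists. GR after CORT had 2 peaks there, with −log10 p 22.4 and 31.2 and ranks 276 and 67 of 10602. MR after CORT had 1 wide peak over the same stretch, with −log10 p 34.2 and rank 104 of 14638. After washout, MR kept 2 peaks here at ranks 629 and 1751 of 4885, and GR kept 1 at rank 228 of 246, near the bottom of its list. That GR peak overlapped the weaker of the GR peaks after CORT, at rank 276. The stronger, at rank 67, was overlapped by no GR washout peak. The stretch lay between +18275 and +18883 bp from the transcription start by its summits, and no GRE match within 100 bp of any of them had fewer than 4 mismatches.

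Another Nfkbia site, at +12444 bp by its GR summit, held a closer GRE match than either of the above and weaker peaks. GR after CORT had a −log10 p of 14.1 and rank 1462 of 10602 there. MR after CORT had 18.7 and rank 1033 of 14638, and MR after washout 9.02 and rank 2520 of 4885. GR after washout had no peak at this site. The MR border pair after CORT, chr12:55480182-55480257, was 76 bp long and contained the whole GRE, which departs from the palindrome at 2 positions.
The remaining Nfkbia sites were seen with MR alone after CORT. The peak at chr12:55488833-55488867, just past the 3′ end of the gene, had a −log10 p of 8.41 and rank 8766 of 14638 beside a GRE with 2 mismatches. The peak upstream, at −8417 bp, had 5.52 and rank 13737, near the end of the list (top 93.8%).

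The closest matches to the GRE at 6 of the other member sites are shown here to compare their departure from the palindrome, with the 15 bp of the match in capitals, on the strand of each gene in GRCm38. They are, in order, at chr12:55480216-55480250, minus strand; chr12:55488831-55488865, minus; chr12:55474349-55474383, minus; chr17:45551244-45551278, plus; chr3:135641685-135641719, minus; and chr11:54931615-54931649, minus. Mismatches number 2, 2, 4, 3, 3 and 2. The match with 4 is shown because the binding there was strong, and it is not counted as a GRE under the limit of 3 mismatches. The match with 3 at the Nfkbie site inside Tmem151b is not printed.
Nfkbia +12.4 kb: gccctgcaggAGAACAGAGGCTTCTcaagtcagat
Nfkbia 3′ side: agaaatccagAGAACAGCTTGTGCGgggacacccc
Nfkbia downstream, strong site: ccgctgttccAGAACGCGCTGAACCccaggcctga
Nfkbie upstream: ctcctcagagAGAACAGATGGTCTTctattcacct
Nfkb1 intron 6: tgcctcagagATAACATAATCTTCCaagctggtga
Tnip1 intron 7: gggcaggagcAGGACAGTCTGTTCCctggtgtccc

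**Figure D2:**
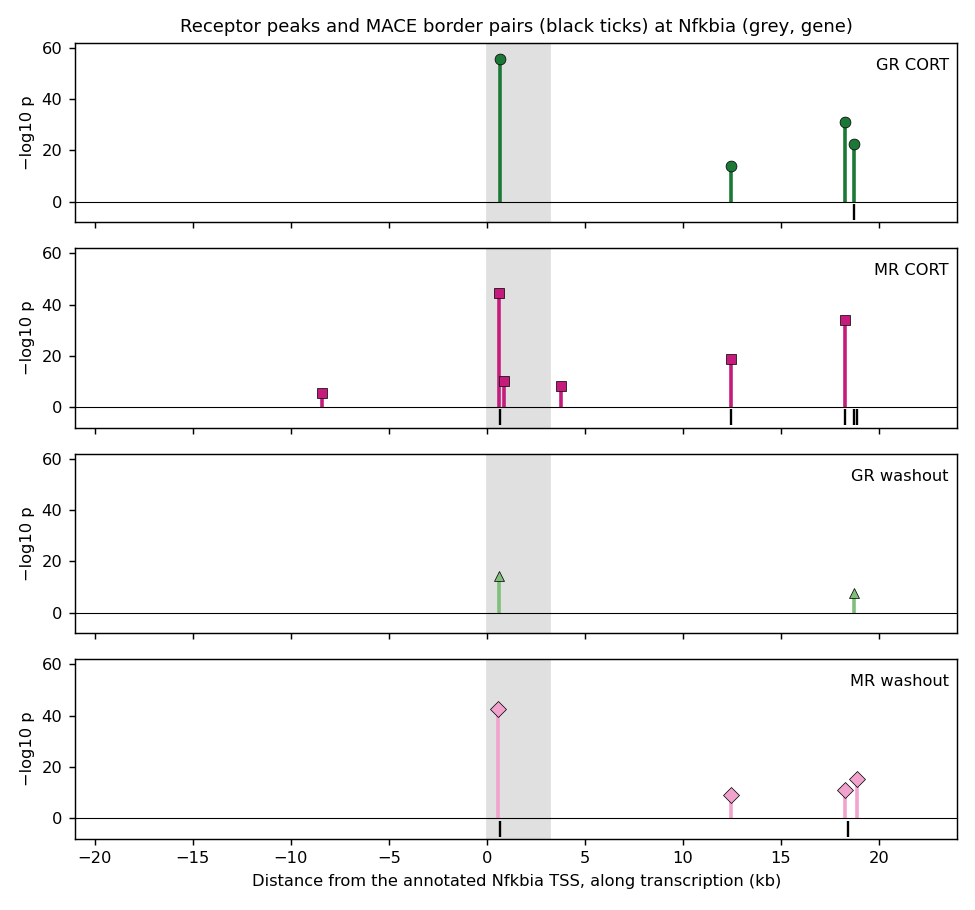
GR and MR peaks around Nfkbia in the CORT and washout lists, by distance from the transcription start (kb, along the direction of transcription), with the height of each mark giving −log10 p. Grey marks the gene and black ticks under the axis the border pairs. The intron site reaches 55.7 for GR and 44.5 for MR after CORT, and 14.2 and 42.5 after washout. Heights are not comparable between lists.

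The receptor border pairs listed at the 10 genes lay at Nfkbia, with the limit that the GR list after CORT is incomplete and not comparable with the MR list. They were 5 of the 3285 MR pairs after CORT, 2 of the 1670 MR pairs after washout and 1 of the 139 GR pairs held for CORT, with none of the 623 GR and 1332 MR vehicle pairs or the 568 GR washout pairs. Of the input pairs, 2 of 6351 after vehicle lay at Nfkbib and Tnip1 and 2 of 5509 after washout at Nfkbia, none of 5767 after CORT lay at a member, and no input pair overlapped a receptor peak at these genes.

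Among the other inhibitors, Nfkbie was occupied by both receptors, Nfkbiz by MR, and Nfkbib by neither. Nfkbie (ENSMUSG00000023947, chr17:45555703-45563169, plus strand) encodes IκBε, which also holds NF-κB in the cytoplasm. Its main site lay upstream, at −4426 bp for GR after CORT and −4355 bp for MR after CORT. GR had a −log10 p of 9.99 and rank 3521 of 10602 there, in the top 33.2%, and MR 22.9 and rank 526 of 14638, in the top 3.59%. MR after washout had a peak overlapping it at −4328 bp, with 9.01 and rank 2521 of 4885, and GR after washout had none. The nearest protein-coding transcription start to this site was that of Tmem151b, the gene on the other side, so its assignment to Nfkbie follows from the distance rule alone. A second MR peak after CORT, at −12759 bp, lay inside Tmem151b, with a −log10 p of 13.1 and rank 3039 of 14638.

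Nfkbiz (ENSMUSG00000035356, chr16:55811375-55838899, minus strand) encodes IκBζ, an atypical nuclear member that acts with NF-κB at some of its targets rather than retaining it. It had 1 peak, of MR after CORT, in intron 4 at +19496 bp, with a −log10 p of 12 and rank 3406 of 14638. That summit lay at −888 bp from another annotated transcript start of Nfkbiz. Nfkbib (ENSMUSG00000030595, chr7:28758251-28767512, minus strand), encoding IκBβ, had no peak in its window. The nearest summits to it were of MR, 24.4 kb from the gene after CORT and after washout, outside the 20 kb limit, and the nearest of GR after CORT was at 45.0 kb.

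The subunits of NF-κB had weaker peaks than the strongest of Nfkbia, and none of them kept a peak after washout. Nfkb1 (ENSMUSG00000028163, chr3:135584655-135691547, minus strand) is by far the longest of the 10, at 106893 bp, and encodes the p105 precursor of p50. GR after CORT had peaks in intron 6, at +49808 bp with a −log10 p of 8.66 and rank 5190 of 10602, and upstream, at −4882 bp with 14.2 and rank 1168. MR after CORT had 3 peaks, at +59444 bp (6.54, rank 11638 of 14638), +43768 bp (13.7, rank 2379) and −3952 bp (7.83, rank 8979). No GR peak overlapped an MR peak at this gene, so its 5 sites were 2 of GR and 3 of MR. Length alone gave Nfkb1 more window than the others, and its 5 peaks are not set against theirs.

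Nfkb2 (ENSMUSG00000025225, chr19:46304320-46312385, plus strand), which encodes the p100 precursor of p52, had 1 MR peak after CORT, in intron 1 at +730 bp. Its −log10 p was 6.54 and its rank 11638 of 14638, and the best GRE match within 100 bp of its summit had 6 mismatches. Rela (ENSMUSG00000024927, chr19:5637483-5648130, plus strand), which encodes the transactivating subunit p65, had 1 MR peak after CORT, with 8.82 and rank 7927, at +26335 bp. That summit lay 15.7 kb past the end of Rela, the furthest of all those inside the limit, and the nearest transcription start to it was that of Sipa1. Relb (ENSMUSG00000002983, chr7:19606217-19629438, minus strand), which encodes the partner of p52 in the alternative pathway, had no peak. The summits nearest to Relb were 121 kb away for GR and 279 kb away for MR after CORT. Just outside the limit for a member with peaks were GR and MR summits after CORT 21.3 kb from Nfkbie and an MR summit 27.8 kb from Nfkb2.

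Tnfaip3 (ENSMUSG00000019850, chr10:19000910-19015657, minus strand) encodes A20, a ubiquitin-editing enzyme that shuts off signalling upstream of the IκB kinase, and its partner Tnip1 (ENSMUSG00000020400, chr11:54910785-54962917, minus strand) encodes ABIN-1, which brings A20 to its targets. Tnfaip3 had no peak in any list. The summits nearest to it after CORT were 152 kb away for either receptor. Tnip1 carried 2 GR peaks after CORT, in intron 1 at +6634 bp (−log10 p 7.38, rank 7262 of 10602) and upstream at −10762 bp (7.57, rank 6949). The summit in intron 1 lay at −161 bp from another annotated transcript start of Tnip1. MR after CORT had a peak overlapping the upstream GR peak, at −10758 bp with 7.42 and rank 10559 of 14638. The stronger site at Tnip1 was of MR alone, in intron 7 at +31272 bp, with 13.6 and rank 2525 of 14638 after CORT, the top 17.2%. In the washout list it had 15.9 and rank 606 of 4885, the top 12.4%. A GRE with 2 mismatches lay within 100 bp of both of those summits. With 1 start per gene, the nearest protein-coding transcription start to each was that of Gpx3, although both lay inside Tnip1.

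Ranked by its best peak among all protein-coding genes with a peak in their window, Nfkbia stood at 6 of 5771 for GR after CORT, 31 of 6630 for MR after CORT, 36 of 223 for GR after washout and 16 of 3127 for MR after washout. In number of peaks after CORT it was less extreme, since 809 genes (3.69%) had at least its 4 GR peaks and 549 (2.5%) at least its 6 MR peaks. After washout it was less extreme in number for MR, where 247 genes (1.13%) had at least its 4 peaks. This did not hold for GR, where 21 genes (0.0957%) had at least its 2 peaks. The next best members stood far lower. Nfkb1 was at 1112 of 5771 for GR and Nfkbie at 515 of 6630 for MR after CORT, and Tnip1 at 606 of 3127 for MR after washout. The lowest were Tnip1 for GR after CORT, at 4460 of 5771, and Nfkb2 for MR after CORT, at 5881 of 6630. A gene's rank depends on its neighbours too, because a strong peak counts for every gene within 20 kb of it.

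**Figure D3:**
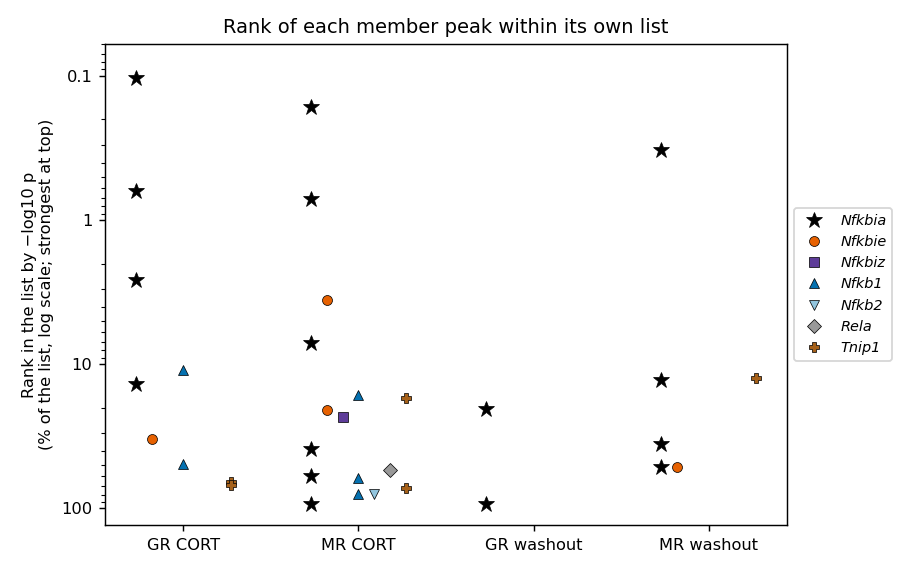
Rank of each member peak within its list, as the percentage of the list down to that peak (log axis, strongest at the top), for GR and MR after CORT and after washout. The intron peak of Nfkbia lies in the top 0.104% (GR) and 0.164% (MR) after CORT and in the top 0.328% for MR after washout.

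The share of peaks common to both receptors at these genes had wide intervals that include the value of the whole lists. Of the 9 GR peaks after CORT at the members, 6 were overlapped by an MR peak (66.7%, 95% Wilson interval 35.4% to 87.9%), against 61.0% of the whole list. Of the 16 MR peaks, 6 were overlapped by a GR peak (37.5%, 18.5% to 61.4%), against 47.6% of the whole list. Without Nfkbia the counts were 2 of 5 for GR and 2 of 10 for MR. These intervals cover counting error only, and peaks of the same gene are not independent.

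Washout left few GR peaks. Of the 9 GR peaks after CORT, 2 were overlapped by a GR washout peak (22.2%, 6.32% to 54.7%), both at Nfkbia, against 2.13% of the whole list. Without Nfkbia it was 0 of 5. For MR, 5 of 16 were overlapped by an MR washout peak (31.2%, 14.2% to 55.6%), against 24.6%, and 2 of 10 without Nfkbia. All 6 MR washout peaks and both GR washout peaks at these genes overlapped a CORT peak of the same receptor, against 75.7% and 89.8% of the whole lists. The GR washout list is short and its lowest −log10 p is 5.67 against 4.35 after CORT.

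Within 100 bp of the summit, a GRE with at most 3 mismatches was found for 4 of the 9 GR peaks after CORT (44.4%, 18.9% to 73.3%), 6 of 16 MR peaks after CORT (37.5%, 18.5% to 61.4%) and 3 of 6 MR washout peaks (50%, 18.8% to 81.2%). Windows of the same length around all summits held it in 37.7%, 39.9% and 45.5% respectively. A GRE with at most 2 mismatches, as at the Nfkbia +12.4 kb site and the Tnip1 intron 7 site, was found in 10.5% of all GR and 11.5% of all MR windows after CORT. The strongest peaks of Nfkbia were not those with the closest GREs, since the intron site had 3 mismatches and the strong downstream site 4. A match is a description of the letters and not a measured contact.

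The NF-κB consensus matched in 1 of 9 GR peaks and 3 of 16 MR peaks after CORT (11.1%, 1.99% to 43.5%, and 18.8%, 6.59% to 43%), against 2.65% and 2.49% of the whole lists. All 3 of these MR peaks and the GR peak were at Nfkbia, with their matches in intron 1 or just past the 3′ end. Peaks of the same gene are not independent, and the intervals do not allow for that. The intron match printed above stood within 100 bp of the GR summit and of an MR summit after CORT. It also stood that near the GR summit after washout, but not the MR summit after washout. The MR peak after CORT with its summit at +853 bp had 3 matches of its own within 100 bp. The printed match was not among them. None of the 6 MR washout peaks at these genes had a match within 100 bp of its summit. The intron peak of MR after washout, chr12:55491875-55492133, nevertheless contained the whole printed match, further from its summit. No AP-1 site (TGACTCA or TGAGTCA) lay in any of the 9, 16 or 6 windows, and a share of up to 33.3%, 18.8% or 50% would not be detectable with so few, while 8.73%, 7.81% and 9.2% of all windows held one.

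Other genes of the pathway, 43 in number, had peaks in shares close to the background over protein-coding genes. A GR peak after CORT lay at 13 of the 43 (30.2%) and an MR peak at 16 (37.2%), beside a background of 26.3% and 30.2%. After washout none had a GR peak, beside 1.02%, and 7 (16.3%) had an MR peak, beside 14.3%. After vehicle none had a peak. Among receptors and adaptors, GR peaks after CORT lay at 5 of 12, MR peaks after CORT at 8 and MR washout peaks at 3. For the kinases these counts were 3, 4 and 0 of 10, and for the ubiquitin machinery 5, 4 and 3 of 14. Of the 7 other subunits and nuclear regulators none had a CORT peak, and 1, Nfkbil1, named after its value was seen, had an MR washout peak. Each class holds few genes, and the background of 26.3%, 30.2% and 14.3% applies to these counts too.

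The best ranked peaks of that list lay at Traf5, an adaptor of tumour necrosis factor receptors, at Itch, a ubiquitin ligase that works with A20, and at Tab1, a partner of the kinase TAK1. Itch held the best GR peak, with a −log10 p of 25.1 and rank 160 of 10602 after CORT, in a position nearest to the start of Dynlrb1 when each gene is given 1 start. Traf5 held the best MR peak, in an intron, with 33.8 and rank 105 of 14638, and it carried 11 GR and 10 MR peaks after CORT. The best peak at Tab1 was of MR after CORT, with 17.4 and rank 1330, nearest by the same measure to the start of Mgat3.

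Peaks were denser in the windows of the 10 genes than in those of protein-coding genes, and Nfkbia accounted for much of it. GR after CORT had 13.6 peaks per Mb at the members, 8.06 without Nfkbia, 11.0 at the other pathway genes and 5.86 over protein-coding genes. MR after CORT had 24.1, 16.1, 9.33 and 8.0 peaks per Mb in the same order. After washout, MR had 9.05, 3.23, 4.81 and 2.62, and GR had 3.02 at the members, none without Nfkbia or in the pathway list, and 0.134 over protein-coding genes. The windows of the members cover 0.663 Mb, so each peak moves these values by over 1 peak per Mb. No gene was left out of the pathway list, where Traf5 alone held 11 of the 39 GR and 10 of the 33 MR peaks after CORT. The median gene length was 12.7 kb for the members, 33.6 kb for the pathway list and 17.4 kb for protein-coding genes.

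**Figure D4:**
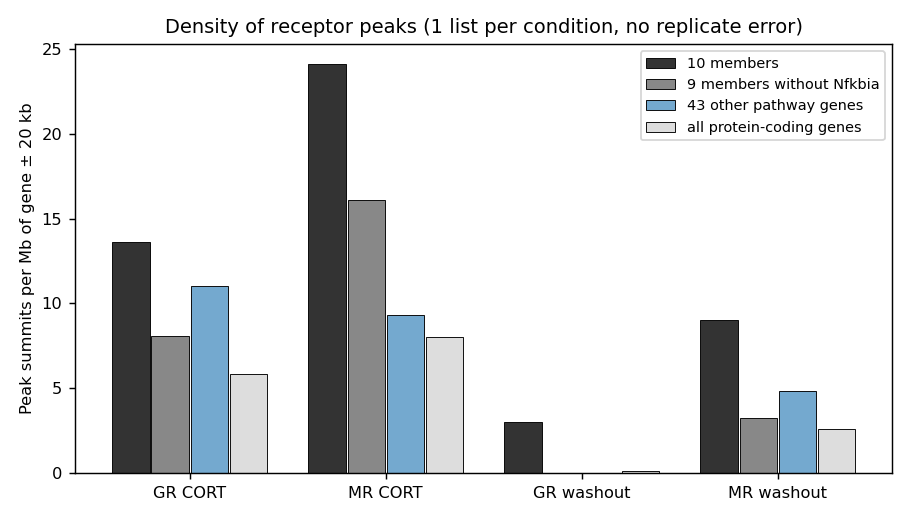
Peaks per Mb of gene window (gene body with 20 kb on each side) at the 10 members, the members without Nfkbia, the 43 other pathway genes and all protein-coding genes, for GR and MR after CORT and washout. GR after CORT falls from 13.6 to 8.06 and MR after CORT from 24.1 to 16.1 when Nfkbia is left out.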

How the data were processed

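The peaks were called by the authors with MACS2 2.1.1.20160309 on the combined replicates, with input as background and a false discovery rate of 0.05, after alignment to mm10 with Bowtie2, as the submitters' processing notes and the methods state. For each peak the authors deposited −log10 p, −log10 q (in the column headed fold enrichment), a score derived from the −log10 q (in the column headed length) and the summit's offset from the peak start (last column). For border pairs the deposited p-value came from MACE, and the GR list after CORT lacks it.

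Summits were assigned to GENCODE M21 genes (gene body and 20 kb on each side), sequence was read from the RefSeq GRCm38 genome, and peaks overlapped when they shared 1 bp. Motifs were sought on both strands within 100 bp of the summit. Scripts were tested on simulated data. Computations used Python 3.11.15, numpy 2.4.6, pandas 2.3.3, scipy 1.17.1 and pysam 0.24.0, and matplotlib 3.10.9 for figures. Intervals are 95% Wilson intervals. The 10 genes and the list of 43 pathway genes were chosen with earlier results of these data known. All 10 were named, and of the 43 those with the 5 best ranked peaks in each CORT list and any with a GR washout or vehicle peak. Read depth per sample is not known from these files. Alternatives changed the window, the threshold, the overlap and the motif.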

Additional observations from a re-analysis of the deposited data

How the results depend on the processing

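Of 110 alternative values over 19 results, 91 stayed within 1.5 times of the count or within its counting interval and 19 moved. This tally is lenient, because vehicle counts stayed at 0 throughout and the shares have wide intervals. For example, the share of GR peaks overlapped by MR after CORT was 40% within 5 kb against 66.7%, and still counted as unmoved. Member peaks followed the window. Gene bodies alone held 3 (GR) and 7 (MR) of the CORT peaks and 1 and 2 of the washout peaks, a 5 kb limit gave 5 and 10, and 1 and 3, and a 50 kb limit gave 20 and 30 after CORT, against 9, 16, 2 and 6. A −log10 q of at least 5 left 9 MR peaks after CORT and 1 GR washout peak. Keeping only peaks whose nearest protein-coding transcription start (1 per gene) is a member left 1 member with an MR washout peak in place of 3. Members with an MR peak after CORT numbered 5 in place of 7 with gene bodies alone, the q limit, or that nearest-start rule. Those with a GR peak after CORT numbered 3 in place of 4 in the same settings. A 50 kb limit gave 8 for MR and 6 for GR, and a 5 kb limit 6 and 4. The background shares given above are for the 20 kb rule only. The share with a GRE was 11.1% for GR after CORT at 2 mismatches, 100% for GR after CORT, 81.2% for MR after CORT and 100% for MR after washout at 4 mismatches, and 62.5% and 83.3% for MR after CORT and after washout within 200 bp, against 44.4%, 37.5% and 50%. Without Nfkbia, the member with the most peaks, no GR washout peak remained. No paired analysis was possible because each condition has 1 list of combined replicates and no test was run, and for the same reason no replicate could be left out. Depth limits which weak peaks are listed, and most lists at these genes hold under 10 peaks, so the intervals are wide.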
